A study of Ovis aries with 8 samples.

Results

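The Notch receptors NOTCH1, NOTCH2 and NOTCH3, the ligands DLL1, JAG1 and JAG2, and the target genes HES1, HES5, HEY1 and HEY2 were examined in the mediobasal hypothalamus of adult Ile-de-France ewes that were food-restricted or fed ad libitum (well fed). These 10 genes, of 33609 in the count table, were taken by symbol. They were selected on the measured level of NOTCH1 in these same pools, with the question whether ligands and targets follow it, so differences between the feeding groups are given for them as a description. Where their count in the test over all genes is printed, it stands beside the share of all genes called and nothing is read from it. RNA came from 60 ewes per group, 30 in each of 2 years, and was combined at random into 4 pools of 15 ewes per group, each sequenced as 1 library. The pools are the replicates (n = 4 per group). How long and how strongly intake was restricted is not in the labels.

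Notch is a receptor that is switched on by contact between neighbouring cells. A Delta or Jagged ligand on 1 cell binds Notch on the next, an ADAM protease and then the gamma-secretase complex cut the receptor, and the freed intracellular part enters the nucleus, where it joins the DNA-binding protein RBPJ and a Mastermind coactivator. The HES and HEY genes induced in this way encode repressors that oppose neuronal differentiation. In the adult brain the pathway is known from neural stem cells, astrocytes and other glia lining the ventricles, and from blood vessels, where NOTCH3 belongs to the mural cells and HEY1 and HEY2 to the endothelium.

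Libraries held between 36192025 and 48125991 counts, and all 10 genes were among the 18193 that passed the filter on low counts. Levels are given as CPM, the counts of a gene per 1e6 counts of its library after TMM scaling. On log2 CPM, principal component 1 held 34.7% of the variance and placed 4 pools below 0 and 4 above it. Food-restricted pools 1 and 2 and well-fed pools 3 and 4 lay below 0 and are called low-score pools here, and food-restricted pools 3 and 4 and well-fed pools 1 and 2 lay above 0 and are called high-score pools. The gap between these sets, 38.7 score units, was wider than any within them (at most 26.5). The low-score pools lay between -46.2 and -29.4. Food-restricted pool 4 was at 9.23, apart from the other high-score pools, which lay between 33.0 and 64.2. All 8 pools stayed on their side when the 10 genes and a wider list of Notch pathway genes, 69 tested genes in all, were left out of the component. The labels do not tie pools to a year, so the part of the year in this split was not tested. The feeding groups are compared below over all pools and within each set, since each set holds 2 pools of each group. In such bulk tissue, fewer cells of a type and less RNA per cell cannot be told apart.

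Markers of the arcuate nucleus and of the pituitary were both detected. Of 7 arcuate markers KISS1 was the lowest, between 2.12 and 7.12 CPM, and the other 6, AGRP, NPY, POMC, TAC3, GHRH and TBX3, were above 10 CPM in every pool. The 7 arcuate markers summed to between 565 and 911 CPM in food-restricted and between 367 and 841 CPM in well-fed pools. The 7 tested pituitary markers summed to between 1241 and 1788 CPM in food-restricted and between 1079 and 1975 CPM in well-fed pools. How much pituitary tissue the pools held was not tested. AGRP was the single gene that edgeR called between the feeding groups, which is 0.0055% of the genes tested. None of the 10 Notch genes was called by edgeR, and neither DESeq2 nor limma voom called any. At an unadjusted p under 0.05 edgeR gave 1 of the 10, NOTCH1, beside 309 of the 18193 genes tested. NOTCH1 is the gene on which the 10 were selected, so this is no evidence of its difference. Of the 10 genes 8 had a higher and 2 a lower mean in the fit, with a median log2 fold change of 0.16 against 0.01 over all genes tested. In 0 of the 10 did the food-restricted pools stand clear of the well-fed pools, a pattern found in 1.6% of all genes.

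**Figure D1:**
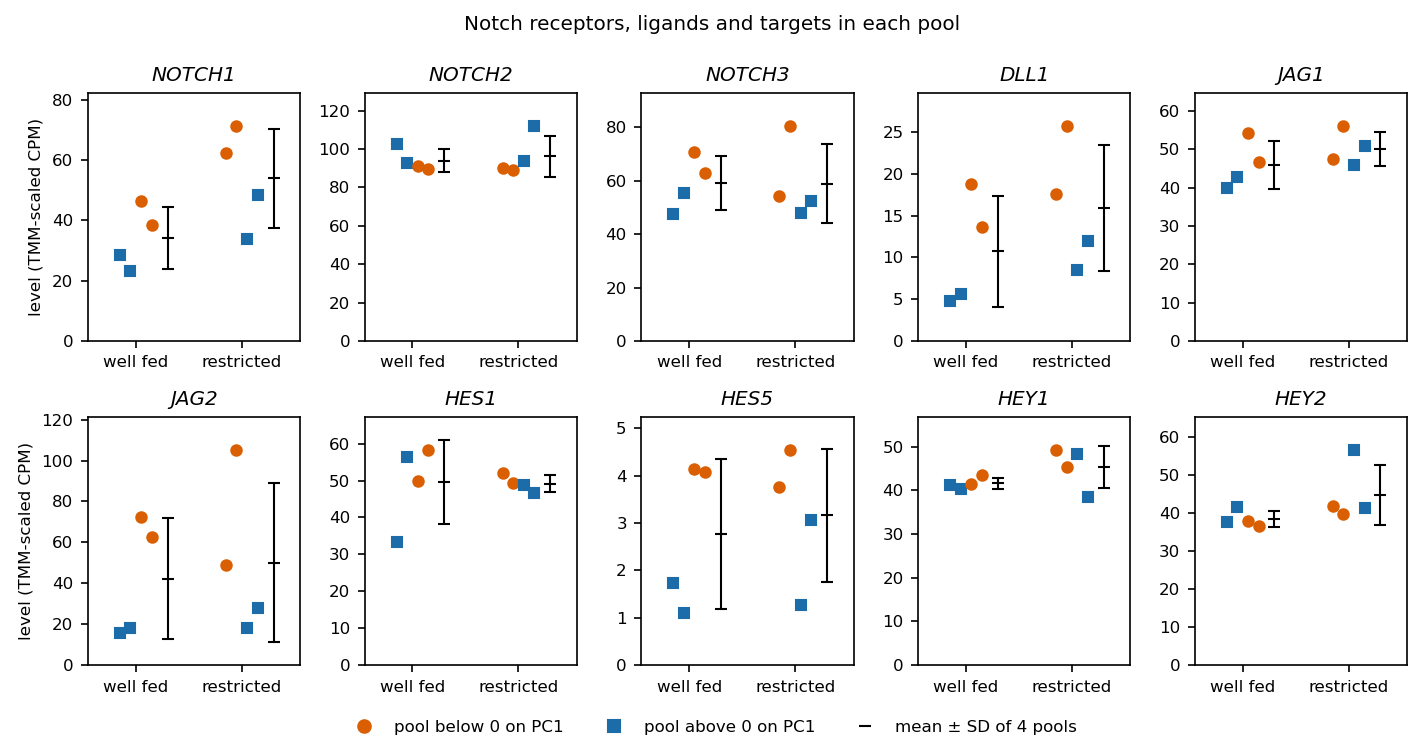
Level of the 10 Notch genes in each pool (TMM-scaled CPM, linear axes from 0, with well-fed pools on the left and food-restricted pools on the right of each panel). Circles are low-score pools, squares are high-score pools, and the bar is the mean ± SD of 4 pools. For NOTCH1 the food-restricted pools were higher within each set, and for DLL1, JAG2 and HES5 all 4 low-score pools were above all 4 high-score pools.

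NOTCH1 (gene ID 101115020), the receptor best known from neural progenitors, was at 62.3, 71.4, 34.0 and 48.3 CPM in food-restricted pools 1 to 4 and at 28.7, 23.1, 46.6 and 38.4 CPM in well-fed pools 1 to 4. The 2 highest pools were food-restricted and the 2 lowest were well fed, and the groups overlapped in between. Its mean was 54.0 ± 16.4 CPM with restriction and 34.2 ± 10.4 CPM without (SD, n = 4 pools each). This is 1.58-fold, or 0.66 on the log2 scale of the edgeR fit (SE 0.26).

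Within each set of pools the NOTCH1 groups were apart. Among the low-score pools both food-restricted pools lay above both well-fed pools, and the ratio of their geometric means was 1.58-fold. Among the high-score pools the order was the same and the ratio was 1.57-fold. Food-restricted pools were higher without overlap in both sets in 2.52% of all genes tested, and of the 10 Notch genes NOTCH1 had this pattern. The 10 were selected on the level of NOTCH1 in these same pools, so its agreement in both sets is no evidence of a feeding difference. In the low-score pools alone the food-restricted pools were higher without overlap for 3 of the 10, NOTCH1, HEY1 and HEY2, against 12.9% of all genes. In the high-score pools alone this held for 4, NOTCH1, DLL1, JAG1 and JAG2, against 15.6%. Both counts include NOTCH1, and nothing is read from them. With the set as a block in the fit, the log2 fold change of NOTCH1 was again 0.66, with an SE of 0.13 in place of 0.26. It was not called in that fit, which called 0.033% of genes and 0 of the 10. The sets were formed from the expression of these same pools, and NOTCH1 differed between them. A smaller SE therefore follows from the choice of block and is no further evidence of a feeding difference.

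For the other receptors the group means were close. NOTCH3 (gene ID 101123554), the receptor of vascular mural cells, was between 47.9 and 80.6 CPM in food-restricted pools and between 47.4 and 71.0 CPM in well-fed pools, with a log2 fold change of -0.01 (SE 0.18). That value was -0.18 without food-restricted pool 2 and 0.10 without well-fed pool 3. NOTCH2 (gene ID 101112098), a receptor of glia and vessels among other cells, was at 90.2, 89.3, 93.9 and 112 CPM in food-restricted pools 1 to 4 and at 103, 92.5, 91.4 and 89.6 CPM in well-fed pools 1 to 4. Its pools lay within 1.26-fold of each other, with a log2 fold change of 0.04 (SE 0.11), which was -0.03 without food-restricted pool 4 and 0.09 without food-restricted pool 2. NOTCH4, the endothelial receptor and a gene of the wider list, averaged 23.4 ± 5.8 CPM in food-restricted and 24.6 ± 3.46 CPM in well-fed pools (SD, n = 4).

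Among the 3 ligands DLL1 had the widest difference between the feeding groups on the log2 scale. DLL1 (gene ID 101117853), a Delta ligand of progenitors and neurons, was at 17.6, 25.8, 8.45 and 12.02 CPM in food-restricted pools 1 to 4 and at 4.83, 5.64, 18.7 and 13.7 CPM in well-fed pools 1 to 4. Both high-score food-restricted pools were above both high-score well-fed pools (1.92-fold), while the low-score pools of the groups overlapped (1.33-fold). The log2 fold change over all pools was 0.57 (SE 0.45), and 0.68 (SE 0.19) with the set, formed from these same data, as a block. Without food-restricted pool 2 it was 0.26, and without well-fed pool 3 it was 1.00.

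JAG2 (gene ID 105605912), a Jagged ligand, varied most among the 10 genes. It was at 49.0, 105, 18.2 and 27.7 CPM in food-restricted pools 1 to 4 and at 15.5, 18.1, 72.2 and 62.7 CPM in well-fed pools 1 to 4, a 6.81-fold range. Each low-score pool was above each high-score pool. The feeding groups overlapped widely over all pools, and within the low-score pools they overlapped as well (1.07-fold). Within the high-score pools both food-restricted pools lay above both well-fed pools, the closest at 18.15 against 18.14 CPM. The log2 fold change was 0.25 (SE 0.60), and it was -0.40 without food-restricted pool 2 and 0.64 without well-fed pool 3. JAG1 (gene ID 780486), the ligand best known from vessels and progenitors, stayed between 39.9 and 56.2 CPM in the 8 pools, with a log2 fold change of 0.13 (SE 0.13). Leaving out 1 pool gave between 0.07 (without well-fed pool 1) and 0.23 (without well-fed pool 3). Within the high-score pools its food-restricted pools were higher without overlap (1.17-fold), while the low-score pools of the groups overlapped (1.03-fold).

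**Figure D2:**
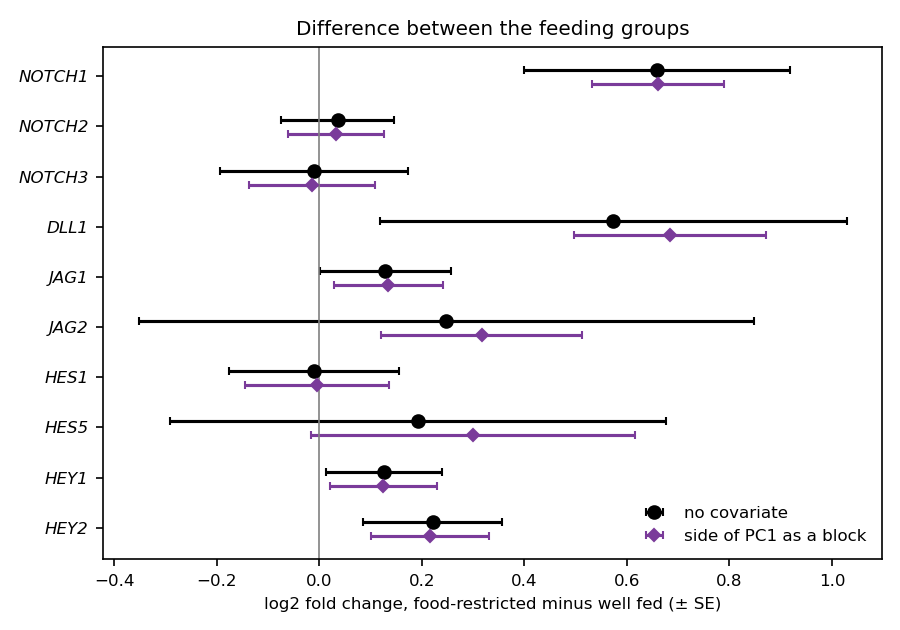
Log2 fold change (food-restricted minus well fed, horizontal axis, ± SE, n = 4 pools per group) of the 10 Notch genes from the edgeR fit with no covariate (circles) and with the set of pools as a block (diamonds). NOTCH1 was at 0.66 in both fits and the SE of DLL1 was 0.45 and 0.19. The block was formed from the same data, so a smaller SE with it is no further evidence. The 4 target genes lay between -0.01 and 0.30.

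For each of the 4 target genes the feeding groups overlapped over all pools. Within the high-score pools they overlapped for all 4 as well, while within the low-score pools the food-restricted pools were higher without overlap for HEY1 and HEY2. HES1 (gene ID 101106560), a repressor induced by Notch and by other signals, was at 51.9, 49.4, 48.9 and 46.5 CPM in food-restricted pools 1 to 4 and at 33.4, 56.5, 49.98 and 58.4 CPM in well-fed pools 1 to 4. All food-restricted pools lay inside the range of the well-fed pools, and the log2 fold change was -0.01 (SE 0.17), or -0.16 without well-fed pool 1 and 0.08 without well-fed pool 4. HES5 (gene ID 101103410), a repressor of neural progenitors that depends closely on Notch, was at 3.77, 4.55, 1.26 and 3.06 CPM in food-restricted pools and at 1.74, 1.09, 4.15 and 4.08 CPM in well-fed pools 1 to 4. These rest on between 42 and 199 counts per pool. Its feeding groups overlapped (log2 fold change 0.19, SE 0.48), and within the low-score pools their ratio was 1.01-fold. Without well-fed pool 2 the value was -0.07, and without well-fed pool 3 it was 0.47.

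The HEY genes, repressors of the vascular endothelium, varied least among the targets. HEY2 (gene ID 100271925) was at 41.8, 39.6, 56.7 and 41.3 CPM in food-restricted pools 1 to 4 and at 37.7, 41.6, 37.8 and 36.7 CPM in well-fed pools 1 to 4. Food-restricted pool 3 was above the rest, and the log2 fold change of 0.22 (SE 0.14) was 0.09 without it. HEY1 (gene ID 101111557) was between 38.6 and 49.3 CPM in all 8 pools, with a log2 fold change of 0.13 (SE 0.11). Without food-restricted pool 4 the value was 0.21. In the low-score pools the food-restricted pools were 1.11-fold higher for HEY1 and 1.09-fold higher for HEY2.

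The other genes were then compared with NOTCH1 pool by pool. Taken as the deviation of log2 CPM from the mean of its own feeding group, NOTCH1 was positive in the 4 low-score pools (0.22 to 0.50) and negative in the 4 high-score pools (-0.61 to -0.11). DLL1 and JAG2 had the sign of NOTCH1 in 8 of 8 pools, and HES5, HES1 and NOTCH3 in 7. JAG1 and HEY1 had it in 6 pools, and NOTCH2 and HEY2 in 2. Since the signs of NOTCH1 were those of the sets, these counts cannot separate following NOTCH1 from the split of the pools. The share of all genes with such signs was not computed. In 14.2% of all genes tested, every low-score pool was above every high-score pool. The sizes differed more than the signs. The deviations of JAG2 ran from -1.14 to 1.39, those of HES5 from -1.15 to 0.78 and those of DLL1 from -0.91 to 1.03. Those of HEY1 ran from -0.23 to 0.13, and those of HES1 lay between -0.08 and 0.27 except in well-fed pool 1 (-0.54). Since the pools fall into 2 sets, no correlation over the 8 pools is given among these genes, and 4 pools in a set are too few for one.

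**Figure D3:**
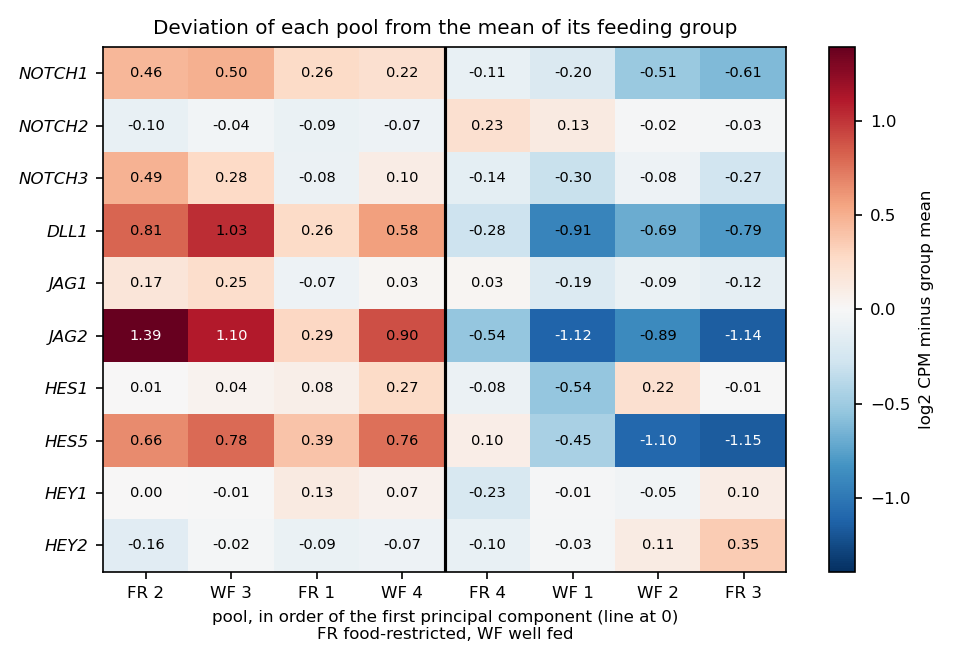
Deviation of log2 CPM from the mean of the feeding group for the 10 Notch genes (rows) in the 8 pools (columns, ordered by the first principal component, with the black line at 0). NOTCH1, DLL1, JAG2, HES5 and HES1 were positive in the 4 low-score pools on the left (HES1 between 0.01 and 0.27). NOTCH1, DLL1 and JAG2 were negative in all high-score pools. HEY1 stayed between -0.23 and 0.13.

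The sets were apart for DLL1, JAG2 and HES5. All low-score pools were above all high-score pools for these 3 of the 10 genes, against 14.2% of all genes tested. The reverse held for NOTCH2 (89.3 to 91.4 CPM against 92.5 to 112 CPM), 1 of the 10, against 8.93% of all genes. The sets were formed from the expression of the genes themselves, so these counts carry no test. The mean log2 CPM of low-score minus high-score pools was 1.84 for JAG2, 1.34 for DLL1 and 1.30 for HES5, a size above 1 that 7.40% of all genes reached in either direction. For NOTCH1 it was 0.72 in the food-restricted and 0.72 in the well-fed pools. For NOTCH3 it was 0.40 and 0.38, for DLL1 1.08 and 1.61, and for JAG2 1.68 and 2.00. HES1 (0.20), JAG1 (0.19), HEY1 (0.09) and HEY2 (-0.17) lay closer to the median of all genes, -0.05.

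Other genes of the pathway were read from a list of 65, of which 59 were tested. edgeR called 0 of them higher and 0 lower between the feeding groups, and DESeq2 and limma voom called 0. At an unadjusted p under 0.05 edgeR gave 2 of the 59, beside 309 of the 18193 genes tested, and nothing is read from this count. In the fit 32 of the 59 were higher and 27 lower, with a median log2 fold change of 0.04 against 0.01 over all genes. The feeding groups did not overlap in 2 of the 59, MFNG and DTX3, both lower with restriction, where the share over all genes was 1.6%. Food-restricted pools were higher without overlap in both sets, as for NOTCH1, in 2 of the 59 (DLK2 and DTX3L, against 2.52% of all genes) and lower in 2 (MFNG and DTX3, against 2.76%).

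In the upstream steps, MFNG, a fringe enzyme that modifies the sugars of Notch and so its choice of ligand, was at 16.1 ± 2.43 CPM in food-restricted and 21.6 ± 2.5 CPM in well-fed pools (SD, n = 4 each; log2 fold change -0.43, SE 0.15). Its relative LFNG was at 0.26 (SE 0.26) and POFUT1, which adds the fucose that fringe extends, at -0.07 (SE 0.12). All 6 other ligands had a positive log2 fold change, among them DLL4, an endothelial Delta ligand (0.27, SE 0.21), CNTN1 (0.20, SE 0.14) and DNER (0.06, SE 0.09), and none passed the test. Of the 9 cleavage genes 8 had a negative one, all small. The share of all genes with each sign was not computed, so nothing is read from these counts. APH1A and PSENEN, subunits of gamma-secretase, were at -0.11 (SE 0.12) and -0.09 (SE 0.14), and the protease ADAM17 was at -0.06 (SE 0.12). Ligand endocytosis, which pulls on the receptor, had NEURL1 at -0.20 (SE 0.13), MIB1 at 0.08 (SE 0.12) and NEURL1B at -0.11 (SE 0.19).

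In the nuclear complex MAML2, a Mastermind coactivator, was at 0.16 (SE 0.17) and the co-repressor CTBP2 at 0.10 (SE 0.11). RBPJ itself averaged 6.0 ± 0.83 CPM in food-restricted and 6.66 ± 1.2 CPM in well-fed pools (SD, n = 4), and its relative RBPJL did not exceed 0.66 CPM in any pool, so no fold is given for it. Among inhibitors and turnover factors, DTX3L, an E3 ligase of the Deltex family, averaged 4.09 ± 1.12 CPM in food-restricted and 2.59 ± 0.28 CPM in well-fed pools (0.66 on the log2 scale, SE 0.25). DTX3 was at -0.17 (SE 0.10) and NUMBL at -0.10 (SE 0.20). Of the other HES and HEY family genes, HEYL was at -0.18 (SE 0.13). BHLHE41 (0.22, SE 0.14) and BHLHE40 (-0.26, SE 0.20) were listed in the same role but are not HES or HEY genes. NEUROG2, a proneural gene, was at most 1.43 CPM, and its fold is not given.

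The split between the sets of pools ran through the wider list as well. All low-score pools were above all high-score pools for 16 of the 59 genes (27.1%, against 14.2% of all genes) and below them for 4 (POGLUT1, ADAM10, SNW1 and KAT2B; 6.78%, against 8.93%). The examples that follow were chosen after their values were seen. NRARP, a feedback inhibitor that Notch induces, had 58, 240, 3 and 9 counts in food-restricted pools 1 to 4 and 18, 9, 230 and 52 counts in well-fed pools 1 to 4. HES4 was between 0.873 and 2.71 CPM in low-score pools and between 0.182 and 0.474 CPM in high-score pools. The co-repressor CTBP1 was between 86.8 and 127 CPM against between 17.95 and 34.8 CPM, while its relative CTBP2 was between 86.5 and 102 CPM against between 85.4 and 109 CPM. DLK2, a non-canonical ligand, was between 21.7 and 27.8 CPM against between 6.78 and 13.3 CPM. The fringe genes LFNG and RFNG and the ligand endocytosis genes MIB2 and EPN1 were also among the 16.

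**Figure D4:**
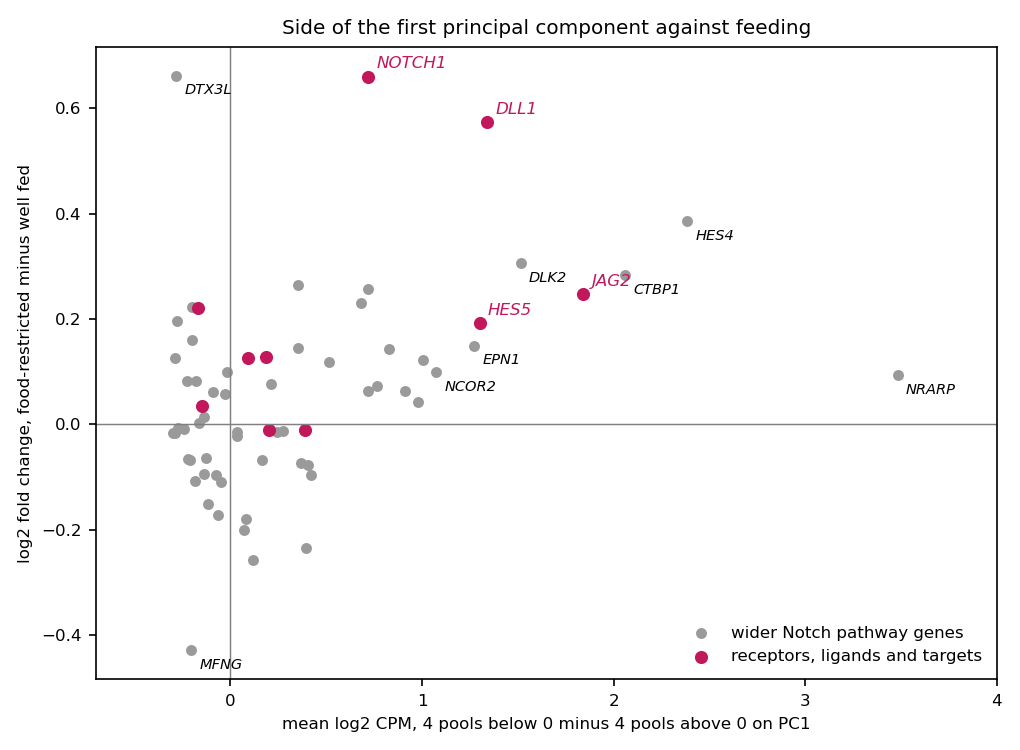
Mean log2 CPM of low-score minus high-score pools (horizontal axis) against the log2 fold change of food-restricted minus well-fed pools (vertical axis) for the 10 Notch genes (red) and the 56 genes of the wider pathway list that reached 2 CPM in at least 1 pool (grey). On the horizontal axis NRARP was at 3.48, CTBP1 at 2.06 and JAG2 at 1.84, while on the vertical axis NOTCH1 (0.66) and DLL1 (0.57) were the highest of the 10.

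Markers of the cells that carry Notch genes were read beside these results. Of 11 astrocyte markers 0 were called between the feeding groups, and their summed level was between 11631 and 13005 CPM in food-restricted and between 11894 and 13151 CPM in well-fed pools. The 12 endothelial markers summed to between 264 and 314 CPM against between 267 and 294 CPM, and the 6 tested markers of pericytes and smooth muscle to between 295 and 345 CPM against between 299 and 341 CPM. The 7 tested tanycyte markers summed to between 1423 and 1576 CPM against between 1387 and 1645 CPM, and the 7 ependymal markers to between 178 and 215 CPM against between 178 and 210 CPM. These sums rest mainly on a few abundant genes, GFAP and ALDOC for astrocytes and VIM and CRYM for tanycytes, and single markers differed from them. DIO2, a tanycyte deiodinase that activates thyroid hormone, was at 57.0, 53.4, 82.6 and 55.2 CPM in food-restricted pools 1 to 4 and at 101, 111, 76.2 and 85.6 CPM in well-fed pools 1 to 4, lower without overlap in both sets. Its log2 fold change was -0.59 (SE 0.17), and edgeR did not call it. RAX, a defining tanycyte gene, was at most 1.61 CPM. Over all 89 tested markers 4 were higher without overlap in both sets (FGFR3, SOX10, AGRP and NPY), against 2.52% of all genes. Another 5 were lower (DIO2, ACTA2, KCNJ8, MRC1 and COL3A1), against 2.76% of all genes. Of the 7 tested neuron markers 7 had a positive log2 fold change, and 0 were called. Their median was 0.07, against 0.01 over all genes tested, and the share of all genes with a positive sign was not computed. The neuron markers summed to between 1248 and 1507 CPM in food-restricted and between 1140 and 1343 CPM in well-fed pools. The part of these cells in the NOTCH1 difference was not tested. Between low-score and high-score pools the summed markers of oligodendrocyte progenitors did not overlap (216 to 263 CPM against 179 to 195 CPM), in the direction of DLL1, JAG2 and HES5, and their part in that split was not tested. Within that list CSPG4, OLIG1 and SOX10 were higher in all low-score pools and PDGFRA was lower. The summed astrocyte, endothelial, mural, tanycyte and ependymal markers overlapped between the sets, while among astrocyte genes FGFR3 was higher in all low-score pools and SLC1A3 and GJA1 were lower.

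The genes whose pattern over the 8 pools was most like that of NOTCH1 were sought among 10604 genes with a mean of at least 10 CPM. They were MVD (Pearson's r = 0.96), CDC42EP4 (0.95), SEMA4B (0.95), MYT1L (0.95) and SDSL (0.95), where r describes likeness over 8 pools that share the split into sets. MVD is an enzyme of cholesterol synthesis and MYT1L a neuronal transcription factor. Being picked for likeness to NOTCH1 in these pools fixes the direction of their difference between the feeding groups, which is therefore not given.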

How the data were processed

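The authors deposited raw read counts per gene, 1 column per pool. Per the submitters' processing notes, the tools included featureCounts 2.0.0, SAMtools 1.9, Bowtie2 2.3.5.1 and TopHat2 2.1.1, with no roles stated. Per the labels' protocols, libraries were made with a stranded mRNA kit (Truseq). The sources used here do not give the genome build or the strand setting of the counting, so no coordinates are printed. Transcript lengths were not used. Where markers of a list are ranked or summed, this is by CPM without regard to length, and levels are not otherwise compared between genes. Sequences of the genes are not printed.

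Counts were tested in R 4.3.3 with edgeR 4.0.16: filterByExpr (minimum count 10, minimum total 15), TMM, and the quasi-likelihood F test of food-restricted against well-fed pools without covariates, Benjamini-Hochberg over 18193 genes, threshold 0.05. The SE is the absolute log2 fold change over the square root of F. Log2 CPM used a prior count of 2. The test was tested on simulated data, drawn gene by gene without the split of the pools into sets, so that check does not cover the split. DESeq2 1.42.0, limma voom (3.58.1) and svaseq (sva 3.50.0) were alternatives, with other scalings and filters, blocks, and each pool left out.

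The 10 genes, the pathway and marker lists and the design were chosen with earlier results of these data known. In each role of the pathway list up to 3 genes with the smallest p are named, except 1 that is not reported here. RefSeq genes of ARS-UI_Ramb_v3.0, a sheep assembly, held all 10 gene IDs. There, NOTCH2 and DLL1 each overlap an uncharacterised gene, so their counts are less certain. Pairs of pools in a group differed by more than counting noise (chi-square per degree of freedom from 23.9 to 160). By this measure food-restricted pools 1 and 4, from different sets, were at 38.4. Pools 1 and 2 (49.7) and pools 3 and 4 (40.2), each within a set, were further apart, so the sets are less clear in this group. The series' design text calls the pools biological replicates. The p-values measure the spread between pools, each a mix of ewes in 1 library, so differences between ewes and between libraries are not separated.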

Additional observations from a re-analysis of the deposited data

Results flagged for a closer look

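The level of each named gene was searched for single pools far from the others of their group, over 78 groups of 4 pools (39 genes). A pool counted when its gap to the nearest pool, as a share of the group's range, was over Dixon's critical value, which chance gives in about 1 in 20 groups, and 4 groups had one. HEY2 was at 56.7 CPM in food-restricted pool 3, where the next pool was at 41.8 CPM. DLL4 was at 14.9 CPM in well-fed pool 2, below 19.0 CPM in the next. PSENEN was at 74.9 CPM in food-restricted pool 2, below 95.4 CPM in the next. NEURL1B was at 15.8 CPM in well-fed pool 1, above 11.6 CPM in the next.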

How the results depend on the processing

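Over 18 alternatives, none called any of the 10 Notch genes or of the wider pathway list. The log2 fold change of NOTCH1 stayed positive in all 18, between 0.51 (without well-fed pool 2, or without food-restricted pool 2) and 0.86 (without well-fed pool 3). DLL1, JAG1, HEY1 and HEY2 were also positive in all 18. Each alternative refits pools on which the selection by NOTCH1 rested, so a constant sign is no further evidence of a feeding difference. The sign stayed in 17 of 18 for NOTCH2, 16 for HES5, 15 for JAG2, 13 for NOTCH3 and 11 for HES1. Leaving out 1 pool moved DLL1 between 0.26 and 1.00 and JAG2 between -0.40 and 0.64. The count of all genes called by edgeR was 1 (AGRP). It was 0 without any 1 of the 8 pools and 0 with the replicate number as a block, 6 with the set of pools as a block, 7 with 1 surrogate variable and 4 in DESeq2. The cause of these changes was not tested. Same-numbered pools did not pair: their deviations correlated between -0.42 and -0.21 over genes, and the replicate block gave NOTCH1 a log2 fold change of 0.66. With the 3 other scalings, an alternative added after seeing the data, DLL1, JAG2 and HES5 still parted the sets. The planned correlations with NOTCH1 were not run because the pools fall into 2 sets. HES5, NRARP, HES4 and RBPJL rest on few counts, which limits their precision.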

Other observations

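The split of the pools that JAG2, DLL1 and HES5 shared also ran between markers of 1 cell type. Among endothelial genes CLDN5, a tight junction protein, was between 14.4 and 22.7 CPM in low-score pools and between 2.28 and 4.29 CPM in high-score pools, while PECAM1 was between 33.5 and 35.9 CPM against between 35.2 and 42.8 CPM. Of the myelin genes MBP was between 1925 and 2580 CPM against between 1103 and 1388 CPM, while MOG was between 128 and 169 CPM against between 128 and 188 CPM. In the pituitary list PITX1 was between 84.2 and 117 CPM against between 18.5 and 43.0 CPM, while CGA was between 827 and 1444 CPM against between 872 and 1474 CPM. These pairs were chosen after their values were seen, and what sets their members apart was not tested.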
